A study of Mus musculus with 6 samples.

Results

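The cytosolic ribosomal protein genes encode the proteins of the small (Rps) and large (Rpl) subunits of the ribosome that translates nuclear mRNAs. They were taken here as every probe, outside the array's control spots, whose current symbol is Rps or Rpl followed by a number, Rplp0, Rplp1, Rplp2 or Rpsa, without the Rps6k kinases and the mitochondrial Mrp genes. That gave 52 genes with 1 probe each, of 20868 probes on the array, of which 9497 could be given a symbol. The 52 held 47 core ribosomal proteins, 4 paralogs (Rpl22l1, Rpl36al, Rpl39l and Rps27l) and 1 pseudogene (Rps12-ps1), and 20 belonged to the small and 32 to the large subunit. Rplp2 and Rpl11 were not among the named probes, and a further 20 probes whose descriptions give a ribosomal protein only in words, Rpl5 and Rps6 among them, did not meet the rule and are given apart.

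Cells make ribosomal proteins in nearly equal amounts, and in growing cells they are a large part of all protein made. Most of their mRNAs begin with a terminal oligopyrimidine (TOP) tract, a run of C and T bases at the first base of the transcript, through which mTOR signalling adjusts their translation. In liver their mRNAs are among the more abundant ones, and proliferating hepatocytes raise ribosome production.

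The study looked for genes that depend on the nuclear receptor CAR (constitutive androstane receptor, Nr1i3) and are induced as liver tumors develop. All RNA came from mice of strain C3H/HeNCrlBR(C3He) aged 39 weeks. Every animal group had received DEN (diethylnitrosamine, a carcinogen that initiates liver tumors), and the groups labelled DEN-PB then drank phenobarbital (PB), which activates CAR and promotes tumors. The groups were DEN-PB WT liver, DEN-PB tumor from WT mice, DEN-PB CAR-KO liver and DEN CAR-KO liver without PB. Each of 6 arrays carried 2 of these RNAs, one in Cy3 and one in Cy5, and the 3 pairs of 2 arrays had the dyes exchanged: WT over CAR-KO liver, CAR-KO liver with PB over CAR-KO liver without it, and WT tumor over CAR-KO liver. DEN-PB CAR-KO liver was thus on every array, all ratios share it, and WT tumor against WT liver could be had only indirectly, as the difference of 2 ratios. The labels do not say how many animals gave an RNA, whether RNA was pooled or whether the dye exchange reused 1 extract. The p-values thus measure the spread between dye-exchanged arrays left after fitting a dye effect per probe, which may be technical. For each probe this spread is 1 estimate shared by the 3 pairs. An unlike array in 1 pair can therefore also widen the standard errors of the other pairs. The CAR-KO labels name no allele, and total liver RNA holds all the cell types of the organ.

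The probe for Nr1i3, the deleted gene, had log2 ratios of WT over CAR-KO liver of 1.08 and 0.49 on the 2 arrays and of tumor over CAR-KO liver of 1.71 and 1.90. Whether this probe lies in the deleted part is not given, so it is only a limited check of the labels. Median spot signals lay between 185 and 236 in Cy3 and between 125 and 169 in Cy5 on 5 arrays, and at 484 and 408 on array 2 of the tumor pair, where the local background was also higher (288 and 299 against 53 to 62). Of the hepatocyte marker list, 6 of 12 genes had a probe, all of them well above background on every array. In tumor over CAR-KO liver, 4 of 8 skeletal muscle markers fell (limma adjusted p under 0.05), where 3.36% of all probes were called in either direction. Of the 8, 5 were below 0 and 3 above, and Ckm (-0.05), Tnnt3 (0.03), Atp2a1 (0.05) and Mb (0.09) were not called. The summed net signal of the 8 was 447 to 1093 in the 2 tumor channels and 1199 to 1896 in the 6 CAR-KO DEN-PB channels. It was 726 to 906 in the 2 channels of WT liver and 510 to 895 in those of CAR-KO liver without PB. The CAR-KO DEN-PB RNA, which every ratio shares, was thus the one with the high sum. The sum adds signals before normalization, and Tnnc2, a muscle troponin, alone reached 937. Tnnc2 was also called lower in WT over CAR-KO liver (-1.78, limma adjusted p = 0.0075) and stood at 1.78 in the phenobarbital pair (limma adjusted p = 0.094). Not all markers shared this. In WT over CAR-KO liver 5 of the 8 were below 0 and 3 above. In the phenobarbital pair 6 were above 0 and 2 below, Sln among the latter (-0.26). In tumor over CAR-KO liver, 1 of 4 bile duct markers (Krt19, higher) and 1 of 4 stellate cell markers (Dcn, lower) also passed. So did 1 of 6 hepatocyte markers (Ass1, lower) and 1 of 3 red cell markers (Hba-a1, lower). Bile duct markers were 2 above 0 and 2 below, and red cell markers 1 above and 2 below. All the stellate cell and hepatocyte markers were below 0. The part of these cells in the ratios below was not tested, and fewer cells of a type cannot be told apart from less RNA per cell.

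RefSeq promoter sequences (build GRCm38.p6, 250 bases before to 50 after the annotated start) were on hand for 40 of the 52 genes. The 30 bases around the start, 15 on each side, are shown to let the TOP feature be seen next to the genes at the ends of the tumor comparison. Capitals mark runs of 6 or more C and T, and the annotated start is the 16th base. The first 4 carry a clear pyrimidine run over the start.
Rpl35, chr2:39005117-39005146, minus strand: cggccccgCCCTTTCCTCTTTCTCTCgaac
Rpl28, chr7:4792950-4792979, plus strand: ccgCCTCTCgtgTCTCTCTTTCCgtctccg
Rpl15, chr14:18270972-18271001, minus strand: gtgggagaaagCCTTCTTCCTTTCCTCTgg
Rps10, chr17:27635230-27635259, minus strand: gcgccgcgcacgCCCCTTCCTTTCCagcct
The others had the highest ratios (Rps19, Rpl22l1, Rps7) and the lowest (Rpl39l, Rps2) in tumor over CAR-KO liver. Rps19 has 3 annotated starts, and the first listed one is shown.
Rps19, chr7:24884577-24884606, plus strand: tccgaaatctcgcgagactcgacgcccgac
Rpl22l1, chr3:28805493-28805522, plus strand: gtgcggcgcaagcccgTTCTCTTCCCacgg
Rps7, chr12:28635939-28635968, minus strand: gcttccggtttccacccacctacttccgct
Rpl39l, chr16:10170213-10170242, plus strand: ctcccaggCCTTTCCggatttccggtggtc
Rps2, chr17:24720048-24720077, plus strand: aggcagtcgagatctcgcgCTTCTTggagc

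A run of 6 or more pyrimidines within these 30 bases was present in 22 of 40 members (55%), counted at the first listed start of each gene, and in 29.1% of the 27025 genes with a promoter sequence. Runs wholly before or after the start base were counted too, so this is not a count of TOP tracts. Over the whole 300 bases and both strands, CTTCCG, the core of ETS family sites, was found in 70% of the 40 members and in 17.2% of all genes, and CTTTCC, a stretch often found in TOP tracts, in 57.5% and 26.3%. The E-box CACGTG was found in 7.5% of members and 7.24% of all genes, and TATAA in 25% and 25.5%. A shorter window around the start, read on the strand of the gene, gave other shares. There CTTCCG was in 10% of members and 2.35% of all genes, and CTTTCC in 17.5% and 1.89%. CACGTG was in 2.5% and 1.23%, and TATAA in 10% and 1.62%. CTTTCC and the pyrimidine runs can be the same bases. The motifs were chosen from 13 looked at in 2 windows with the sequences in view, and these shares are descriptions with no test. The genes at the top of the tumor comparison differed in this: Rps19 and Rps7 had no such run in the window shown, while Rpl22l1 had one. Rps19 had one at another of its 3 starts, and 24 of 40 members had one at any listed start. At the bottom, Rpl39l and Rps2 had one, and Rpl10, the next lowest, had none. The runs of Rpl22l1, Rpl39l and Rps2 did not cover the start base. That of Rpl39l ended before it, and those of Rpl22l1 and Rps2 began after it.

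The members were bright. Of the 52, 43 lay in the brightest 10% of all 20744 probes tested, and all 52 passed the filter on low signal. Their median net signal (spot minus local background) ran from 1176 to 7300 over the 12 channels, where the median of all probes ran from 67.2 to 206. The net signal of Rplp1, a stalk protein of the large subunit, ran from 7069 to 36526 over the channels and that of Rps2 from 6219 to 34206, and no member had a saturated spot on any array. The probes for Rps18, Rpl37 and Rpl14 stayed between 12.8 and 120 in every channel, so their ratios rest on dim spots. Rps18 was well above background in 10 and Rpl14 in 11 of the 12 channels. A second probe, described in words as Rps18, belongs to the 20 given apart. Rpl24 had no usable value on array 1 of the WT pair, where its spot was marked as an outlier, so its WT value rests on array 2 and the dye term.

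The 52 probes differed little between WT and CAR-KO liver after PB. The median log2 ratio of members was 0.04, and that of all probes -0.02. On array 1 the members' median was 0.05 (range -0.37, Rpl41, to 0.39, Rpl3) and on array 2 it was 0.07 (-0.34, Rpl7, to 0.37, Rpl12). None of the 52 was called by limma at an adjusted p under 0.05, and none had an unadjusted p under 0.05 either. Over all probes 0.101% were called. The fitted ratio was above 0 for 36 members and below 0 for 16. The direction turned with median centring, where the members' median was -0.071 with 15 above and 37 below, and without array 1 of this pair, where it was -0.075. With loess, only 18 of the 51 with both values were above 0 on both arrays (35.3%), where 20.5% of all probes were.

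The highest fitted ratio in WT over CAR-KO liver was that of Rps7, a small subunit protein, with 0.28 and 0.31 on the 2 arrays (fitted 0.30 ± 0.19, SE). Rps18 (0.24 ± 0.17) and Rpl12 (0.24 ± 0.21) followed. The dim Rps18 probe depended on the processing: its ratio was 0.44 with a normexp offset of 16, 0.38 with median centring and 1.32 from the authors' deposited ratios (limma adjusted p = 0.64, and 0.64 to 1 over the alternatives run). The lowest were Rps29 (-0.11), Rps25 (-0.10) and Rpl26 (-0.08), each within its standard error of 0. Rpsa, the laminin receptor precursor of the small subunit, stood at 0.01, Rplp0 at 0.12 and Rplp1 at 0.20. The paralogs stood at 0.06 (Rpl22l1), 0.04 (Rpl36al), 0.13 (Rps27l) and -0.08 (Rpl39l). In this pair the members' values on the 2 turned arrays correlated with r = -0.39 over 51 members (Spearman -0.30), against 0.03 over all probes. A dye effect enters the 2 turned arrays with opposite signs, and all 51 points share the same 2 arrays.

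**Figure D1:**
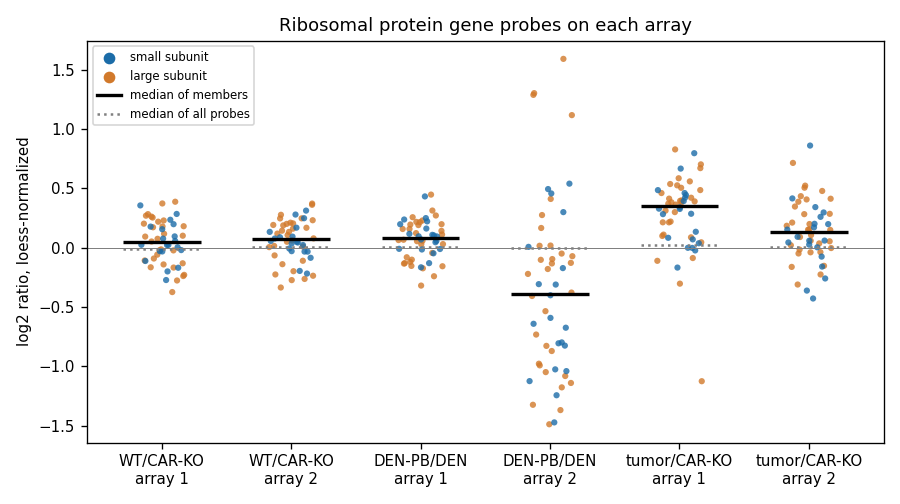
Log2 ratios (loess-normalized) of the 52 ribosomal protein gene probes on each of the 6 arrays, turned to one direction within a pair; each point is 1 probe, coloured by subunit, the black line is their median and the dotted line the median of all probes. The points lie between -0.37 and 0.45 on the first 3 arrays, spread from -1.49 to 1.59 on array 2 of the phenobarbital pair, and lie mostly above 0 on both tumor arrays.

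The phenobarbital pair in CAR-KO liver gave 2 unlike pictures of the same genes. On array 1 the 52 log2 ratios of DEN-PB over DEN lay between -0.32 (Rpl10) and 0.45 (Rpl41) around a median of 0.08. On array 2 they spread from -1.49 to 1.59 around a median of -0.39, with 12 members below -1 and 4 above 1. The standard deviation over members was 0.16 on array 1 and 0.74 on array 2.

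The members at the ends of array 2 moved little, or the other way, on array 1. Rpl39, a small protein of the large subunit, had 0.21 on array 1 and -1.49 on array 2. Rps27a, made as a fusion with ubiquitin, had 0.43 and -1.47. Rpl41 had 0.45 and -1.37, and Rpl35a 0.07 and -1.32. At the other end Rpl3, a core protein near the catalytic centre, had -0.24 and 1.59, Rpl7a had -0.13 and 1.30, Rpl13a had -0.13 and 1.29, and Rpl8 had -0.16 and 1.12. Over the 52 members the 2 turned arrays correlated with r = -0.66 (Spearman -0.67), against -0.35 over all probes, and 41 members had opposite signs.

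The spread was not limited to these genes: in the brightest 10% of all probes the standard deviation was 0.20 on array 1 and 0.89 on array 2. Their medians differed, though, at 0.16 for the brightest 10% and -0.39 for the members on array 2. The fitted dye effect, the Cy5 over Cy3 log2 ratio that limma assigns to a probe over all 6 arrays, ranged from -0.51 (Rpl3) to 0.55 (Rps27a) among members. The 20 probes described only in words split the same way on array 2, from -1.66 (Rpl32), -1.64 (Rpl30) and -1.61 (Rps28) to 1.15 (Rpl13) and 1.27 (Rpl18). The part of the array and of the dye in these ratios was not tested.

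The fitted ratios of DEN-PB over DEN had a median of -0.14 (all probes -0.01), with 13 members above 0 and 39 below. With median centring the median was -0.02, with 23 above and 29 below, and the 9 members with an unadjusted p under 0.05 were all above 0. Over all probes 1764 had such a p in that setting, 1504 of them above 0. In the brightest class of probes, which held 43 of the members, 811 of 2073 did, 807 of them above 0. This direction was thus not particular to the members. With loess, no member was called by limma, and 0% of the 20742 probes tested were called. Unadjusted p was under 0.05 for 6 members, with Rpl3 (0.68 ± 0.24, SE), Rpl7a (0.59 ± 0.20) and Rpl8 above 0 and Rpl39 (-0.64 ± 0.26), Rpl35a (-0.63 ± 0.23) and Rps25 below, and over all probes for 565. Only 7 of 52 members (13.5%) were below 0 on both arrays, where 18% of all probes were. Rpsa stood at 0.20, Rplp0 at 0.22 and Rplp1 at -0.12, and the 4 paralogs between -0.42 and -0.02. Without array 2 the members' median was 0.04, so the direction rests on that array.

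**Figure D2:**
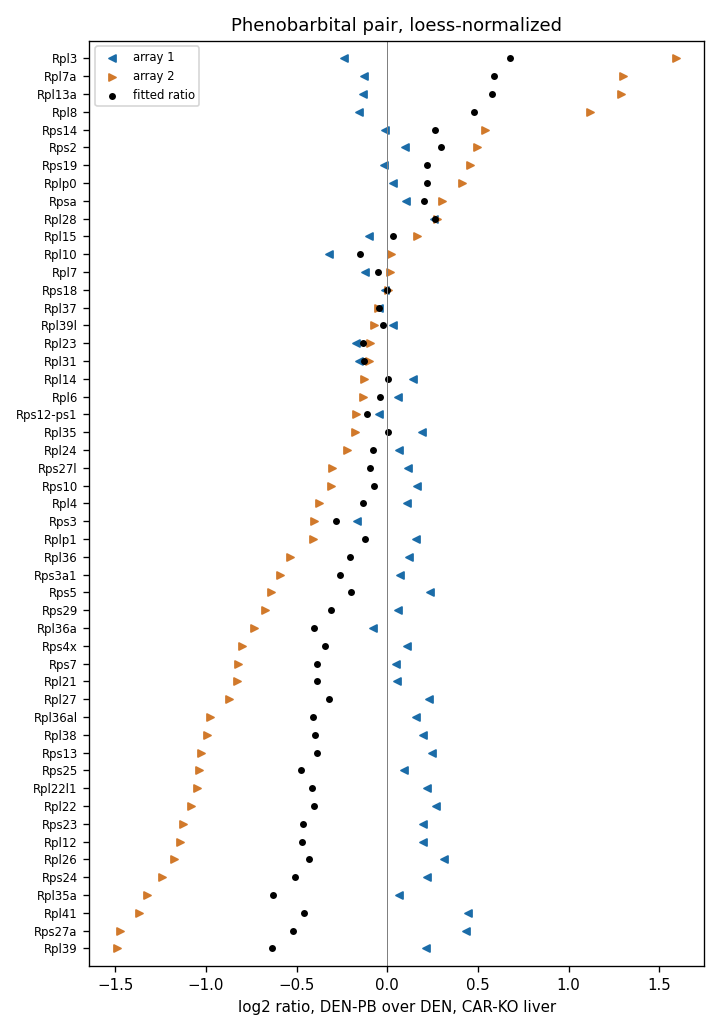
Log2 ratio of DEN-PB over DEN CAR-KO liver for 51 of the 52 ribosomal protein genes, on array 1 (blue), array 2 (orange) and as fitted (black), ordered by array 2. The blue points stay between -0.32 and 0.45 in every row, while the orange ones run from -1.49 (Rpl39) to 1.59 (Rpl3).

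In tumor over CAR-KO liver most members were above 0, by small amounts. The median log2 ratio was 0.23 over members and -0.01 over all probes, with 44 members above 0 and 8 below. The members' median was 0.35 on array 1 (from -1.13 to 0.83) and 0.13 on array 2 (from -0.43 to 0.86). Both arrays were above 0 for 33 of 52 members (63.5%), where 30.6% of all probes were, and both below 0 for 3. None of the 52 was called by limma at an adjusted p under 0.05, where 3.36% of all 20744 probes were. Unadjusted p was under 0.05 for 6 members, each above 0, and for 4858 of all probes.

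Rps19, a small subunit protein whose human counterpart is mutated in Diamond-Blackfan anaemia, had the highest ratio, 0.67 on array 1 and 0.86 on array 2. Its fitted ratio was 0.76 ± 0.16 (SE), a 1.70-fold difference, with a limma adjusted p of 0.053. Both arrays were high, and without array 2 its fitted ratio was 0.78. It was called when only probes well above background in both channels of all arrays were tested (adjusted p = 0.036 by limma). In that setting 638 probes were called higher and 248 lower. Over all alternatives run, its ratio lay between 0.59 and 1.08 and its limma adjusted p between 0.0089 and 0.35.

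Rpl22l1, the paralog of Rpl22, came next with 0.83 and 0.50 (fitted 0.67 ± 0.23, limma adjusted p = 0.15). Rpl22 itself had 0.39 and -0.15 (fitted 0.12 ± 0.20), so its arrays differed in sign. Rps7 had 0.80 and 0.30 (fitted 0.55 ± 0.19, limma adjusted p = 0.15). Rpl12 (0.48), Rpl35 (0.47), Rpl4 (0.43) and Rpl28 (0.41) were above 0 on both arrays, and Rpl35, Rpl4 and Rpl28 were also among the 6 with an unadjusted p under 0.05.

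Rpl39l, a paralog of Rpl39 known for its expression in testis, had the lowest ratio, with -1.13 on array 1 and -0.00 on array 2 (fitted -0.56 ± 0.25, limma adjusted p = 0.22). Without array 2 it stood at -1.23, and without array 1 at 0.099. Its limma adjusted p reached 0.94 over the alternatives run. Rps2 followed with -0.17 and -0.36, low on both arrays, and Rpl10 with -0.30 and 0.15. Rpsa stood at -0.05, Rplp0 at 0.30 and Rplp1 at 0.24. Of the other paralogs, Rpl36al (0.03) and Rps27l (0.09) lay within a standard error of 0, and Rps12-ps1 stood at -0.04.

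Both subunits had medians above 0. The median was 0.19 over the 18 core members of the small subunit, of which 14 were above 0, and 0.25 over the 29 of the large subunit, of which 27 were. The 20 probes described only in words had a median of 0.17, and 19 were above 0. Of these, Rpl27a was highest (0.86 and 0.46, fitted 0.66), and Rps6, the S6 kinase substrate, was the one below 0 (0.10 and -0.39, fitted -0.15), while Rpl5 stood at 0.15.

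**Figure D3:**
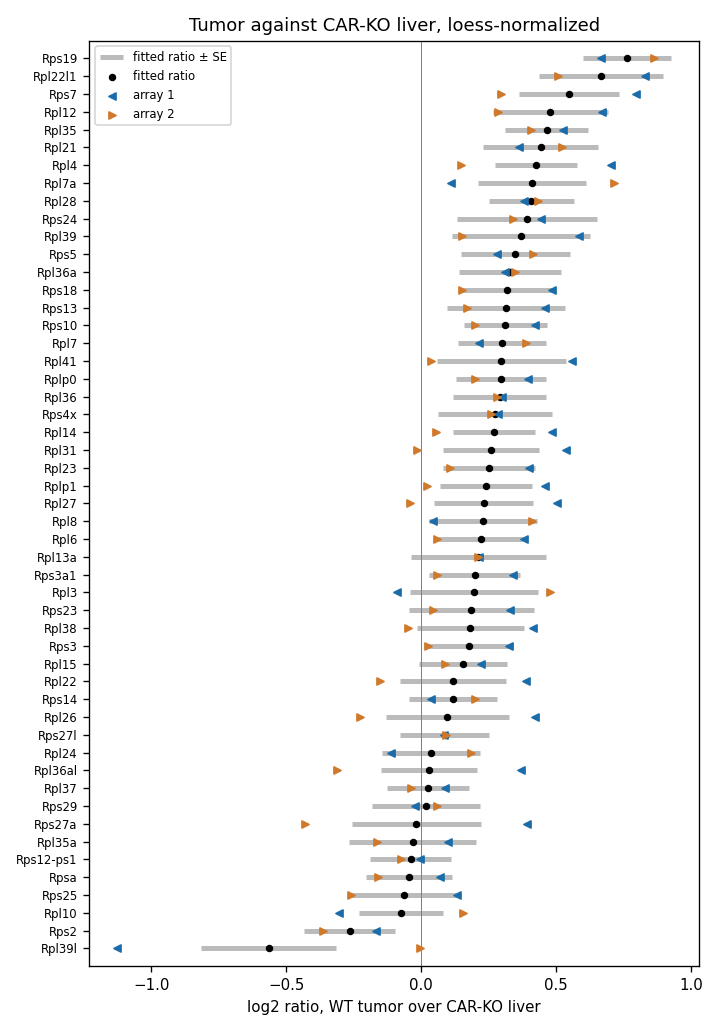
Log2 ratio of WT tumor over DEN-PB CAR-KO liver for 51 of the 52 ribosomal protein genes: the fitted ratio (black) with its standard error (grey bar), and the values of array 1 (blue) and array 2 (orange). The fitted ratio is above 0 in 43 rows, highest for Rps19 at 0.76 and lowest for Rpl39l at -0.56.

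The size of the tumor ratios depended on how the arrays were normalized. Loess is meant to remove a trend of the ratio with signal on an array. Some was left on array 1 of the tumor pair. Medians there were -0.27 in the dimmest 10% of probes, 0.19 in class 6 of 10 and -0.01 in the brightest. With the ratios centred on each array's median instead, limma called 38 of 52 members higher in tumor over CAR-KO liver, where 11.4% of all probes were. Of the brightest 10% of probes, 830 of 2075 were called higher. Among members, 35 of the 43 in that class were, and 3 of the 9 outside it. The members' median became 0.83, and 50 were above 0. Rps7 then stood at 1.23, Rpl22l1 at 1.27, Rps19 at 1.08, Rplp0 at 0.99 and Rplp1 at 0.96. Rpsa, below 0 with loess, was called higher (0.65, limma adjusted p = 0.032, up to 0.96 over the alternatives). Of all probes called in this comparison, 75.1% were higher with loess and 57.3% with median centring.

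With median centring only, the bright probes as a whole went in the same direction as the members on the tumor arrays. After loess the fitted median of the brightest 10% was -0.03 in tumor over CAR-KO liver, with 981 of 2075 above 0. The 43 members in that class had a median of 0.22, with 37 above 0. With median centring the brightest 10% of all probes had a median of 0.82 on array 1 and 0.25 on array 2, and the dimmest 10% -0.49 and -0.20, while the members had 1.21 and 0.38. In WT over CAR-KO liver the members' medians were -0.50 and 0.37 and those of the brightest 10% -0.53 and 0.33, so both changed sign between the 2 arrays of one pair. On array 1 of the phenobarbital pair they were 0.69 and 0.54. On array 2 of that pair the members, at -0.45, lay apart from the brightest 10%, at 0.06. This split by signal was chosen after the data were seen. The part of signal level in the members' tumor ratios was not tested.

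**Figure D4:**
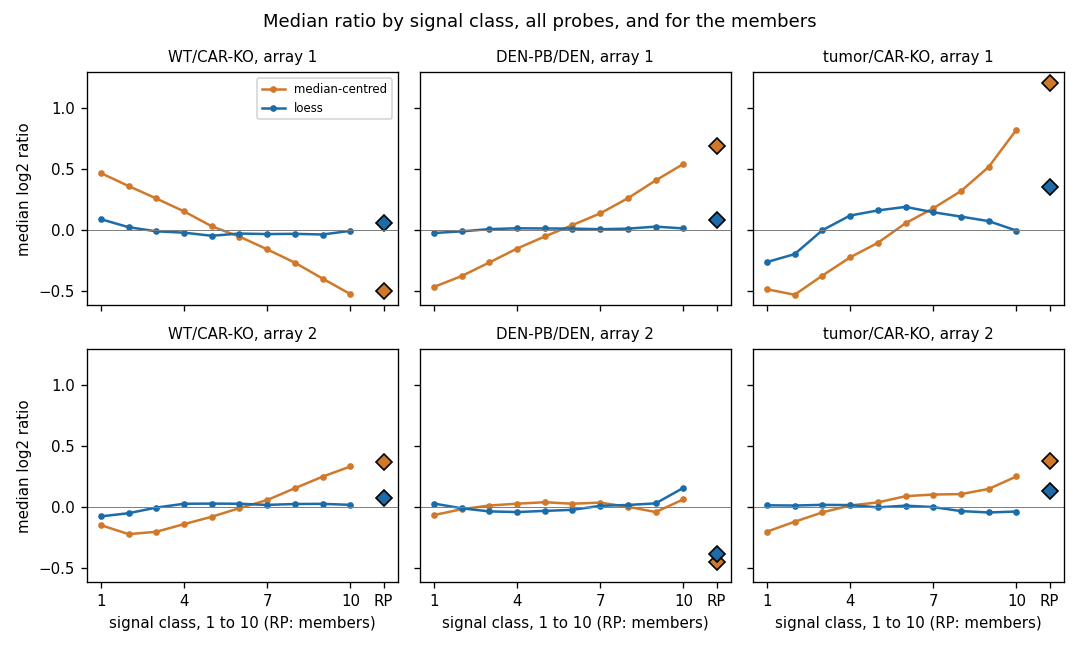
Median log2 ratio of all probes in each of 10 equal classes of signal (1 dimmest, 10 brightest) on each array, with ratios centred on the array's median (orange) and after loess (blue); diamonds at RP are the medians of the 52 ribosomal protein genes. On array 1 of the tumor pair the orange line climbs from -0.49 to 0.82 and the orange diamond is at 1.21, against 0.35 after loess.

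Tumor against WT liver, as the difference of 2 ratios, had a median of 0.17 over members and -0.01 over all probes, with 43 members above 0. None was called by limma, nor was any of the 20743 probes tested (0%), and unadjusted p was under 0.05 for 1 member, Rps19 (0.68 ± 0.23, SE), and for 1737 probes overall. Rpl22l1 (0.60) and Rpl4 (0.43) followed, and Rpl39l (-0.49), Rps2 (-0.25) and Rps12-ps1 (-0.21) were lowest. Rpsa stood at -0.06, Rplp0 at 0.18 and Rplp1 at 0.04. Without array 2 of the WT pair the members' median was -0.079, so its direction rests on that array. Without array 2 of the tumor pair Rpl39l stood at -1.15 here, a value that rests on 1 tumor array. Its limma adjusted p reached 0.9996 over the alternatives.

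Other genes of ribosome production and translation were described from lists, 1 probe per gene. Of 44 genes for ribosome biogenesis and the nucleolus, 23 had a named probe, and none was called in tumor over CAR-KO liver. Their median was 0.22 with 15 above 0, from -0.23 for Emg1, a ribosomal RNA methyltransferase, to 0.63 for Ncl (nucleolin), the major nucleolar protein. Of 29 translation factors and other genes with TOP mRNAs, 19 had a probe and none was called, and their median was 0.18 with 16 above 0. They ran from -0.42 for Eif3i, an initiation factor subunit, to 0.63 for Pabpc1, the poly(A) binding protein (0.72 and 0.55 on the 2 arrays).

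Of 18 genes for S6 kinases and TOR signalling, 12 had a probe and 1 rose, where 3.36% of all probes were called in this comparison. That was Myc, a transcription factor that drives ribosome production, with 1.03 and 0.81 on the 2 arrays (fitted 0.92 ± 0.15, SE, limma adjusted p = 0.021). Eif4ebp1, which binds the cap-binding factor and is a TOR substrate, stood at 0.69 and did not pass. Of 49 mitochondrial ribosomal protein genes, 2 rose, Mrps18a (1.46 ± 0.16, limma adjusted p = 0.0045) and Mrpl54 (0.93 ± 0.15, limma adjusted p = 0.02), and none fell, a share called of 2 in 49 that is near the 3.36% of all probes. Their median was 0.11 with 32 above 0. Fau and Rack1, ribosomal proteins outside the naming rule, stood at -0.23 and 0.20. None of these list genes was called in the other 3 comparisons by limma.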

How the data were processed

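Total liver or tumor RNA was labelled as cRNA and hybridised to 6 Agilent 2-colour arrays, in 3 dye-exchanged pairs. Per the file headers, the authors scanned spots to raw intensity values with Agilent Feature Extraction 7.1.1 (5 arrays) or 7.5.1 (1 array); the submitters' processing notes name 7.5. The deposited log10 ratios, which the authors made with that software, served as an alternative only. Here, with limma 3.58.1, intensities were corrected with normexp (offset 50) and loess-normalized within each array, with controls and outlier spots at weight 0 (outlier weighting was settled after first results were seen), and spots of a probe were averaged. Probes well above background in at least 1 channel on 2 arrays were tested. All 6 arrays were fitted together (lmFit, eBayes) as 3 ratios plus a dye effect per probe, with p-values adjusted over all probes tested (Benjamini-Hochberg, 0.05). With 2 residual degrees of freedom and 5.48 prior ones, the number of arrays limits the precision. The fit was tested on simulated data.

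Symbols came from accessions matched to RefSeq gene tables (8947 probes) or from descriptions (277 as given, 273 updated), and 11371 probes stayed unnamed. The members and lists were chosen with earlier results of these data known. Genes named were the 3 highest and 3 lowest members per comparison, Rpsa, the stalk proteins, the paralogs, genes with unlike probes, and up to 3 called genes per direction of each list or else its highest and lowest; others were named after their values were seen. Alternatives were no background subtraction, offset 16, median centring, the deposited ratios, 2 other filters, no saturated spots, each pair alone, no dye effect, array weights and leaving out each array. Taking the brightest probe per gene changes nothing, since each member has 1 probe. Some items are not reported here by name; they remain in the counts and medians, and 1 member has no row of its own in the plots by gene.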

Additional observations from a re-analysis of the deposited data

How the results depend on the processing

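With ratios centred on each array's median in place of loess, the members' median became 0.83 in tumor over CAR-KO liver, with 38 called higher by limma and Rpsa turned to 0.65, became 0.92 in tumor over WT liver with none called, and became -0.071 in WT over CAR-KO liver. The stricter filter on signal gave 1 member called higher in tumor over CAR-KO liver (Rps19). Leaving out 1 array at a time, the members' median ranged from -0.075 to 0.20 in WT over CAR-KO liver and from -0.079 to 0.36 in tumor over WT liver. In tumor over CAR-KO liver it gave 0 to 1 members called higher and 0 to 1 called lower, and in tumor over WT liver 0 to 1 called lower; the calls came without array 2 of the tumor pair and were Rps19 and Rpl39l. In the phenobarbital pair the members' median was -0.02 with median centring and, leaving out 1 array, ranged from -0.35 to 0.04. With 1 array left in a pair, that array is assumed to vary like the others. Calls over all probes also rose in both tumor comparisons without array 2 of the tumor pair, so these calls are not particular to Rps19 and Rpl39l. Over all probes, limma called 524 higher and 174 lower in tumor over CAR-KO liver, 2370 and 1763 with median centring, 245 and 44 with offset 16, 368 and 99 with no dye effect, 186 and 41 with array weights, 53 and 9 from the pair alone, 1798 and 2909 without array 2 of the tumor pair, and none from the deposited ratios (2860 at an unadjusted p under 0.05). The cause of these changes was not tested. Other counts of members called stayed at 0. Other medians moved by less than the widest spread between arrays, that of the phenobarbital pair (SD 0.33 between its 2 array medians). The same SD was 0.012 in WT over CAR-KO liver and 0.16 in both tumor comparisons, so for those this is a loose limit. Of 756 values of named genes under alternatives, 696 kept their direction and their side of the threshold, 48 uncalled ones changed sign, 11 became called and 1 reversed (Rpsa). Each pair alone could not be fitted for the indirect comparison. Each array's ratio already pairs 2 RNAs, and no further pairing of arrays across groups was possible because the labels give no replicate numbers. Net signals of Rps18, Rpl37 and Rpl14 close to background limit those ratios.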

Other observations

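Rpl7a and Rps18 each had a second probe that the array's descriptions give only in words. On array 2 of the phenobarbital pair the Rpl7a probes read 1.30 and -0.37, and the Rps18 probes 0.01 and -0.39. In tumor over CAR-KO liver the fitted ratios were 0.41 and 0.16 for Rpl7a, and 0.32 and 0.29 for Rps18. The Rpl7a probes thus differed in sign on that array, while the named Rps18 probe, which is dim, lay near 0. The fitted tumor ratios of the probes of both genes were all above 0, and none was called by limma.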
